A study of Mus musculus with 6 samples.

Results

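Transcripts of 38 macrophage and Kupffer cell genes were followed in RNA-seq libraries of sorted mouse hepatic stellate cells. The members were given as a list of symbols of genes known from macrophages, Kupffer cells and leukocytes in general. All 38 were found among the 24346 gene symbols of the deposited files. The list was chosen with earlier results of these data known, so counts of members set beside shares of all genes are descriptive only. The libraries came from C57BL/6 mice, wild type and 35 weeks old. Livers were from mice on a normal diet, or were the non-tumour or the tumour region of livers from mice on a high-fat diet. Both regions come from high-fat livers and are called non-tumour livers and tumour livers for short. From each of these 3 sources, cells were isolated by perfusion at 37 degrees and at 6 degrees, which gave 6 groups of 1 library each. The study asked how isolation at the higher temperature alters the transcriptome. In all 6 groups the cells had been sorted as CD31-/CD45.2-/CD49a+, so that cells carrying CD45.2, the surface protein of leukocytes encoded by Ptprc, were gated out. The labels do not tie a library to an animal or to a number of livers. The p-values therefore measure only the spread of these 6 libraries around additive effects of source and temperature, which may be technical.

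Kupffer cells are the resident macrophages of the liver sinusoids, where they clear bacteria, debris and ageing red cells from the blood. Most are seeded before birth and renew themselves in place. When they are lost, or when the liver is inflamed, blood monocytes enter, and their progeny can take up Kupffer cell genes step by step, with Timd4 known as one of the last. Macrophages marked by Trem2 and Gpnmb gather around lipid and scar in fatty liver. Stellate cells lie beside the sinusoid and touch both endothelial and Kupffer cells.

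Levels are given in FPKM, a fragment count divided by transcript length and by library size. The sum of FPKM over all genes was not equal between libraries. It ran from 492693 in the normal diet library of 6 degrees to 633363 in the tumour library of 37 degrees, so comparisons between libraries are approximate. Estimated from the steps between low values, the libraries held 1.67e+07 to 2.34e+07 fragments, so that a single fragment from 1 kb of transcript amounted to 0.0427 to 0.0601 FPKM. The sorted cell type was present in all libraries, as Lrat stood at 335 to 538 FPKM and Des at 93.8 to 135 FPKM. In sum, 11 stellate cell genes came to between 14869 and 24252 FPKM, of which Dcn alone was 11148 to 16597 FPKM. The 38 macrophage genes summed to far less, 79.9, 743, 59.0, 989, 1428 and 3736 FPKM. Here and throughout, 6 values are in the order normal diet, non-tumour region and tumour region, and within each source 37 degrees comes before 6 degrees. In sorted bulk RNA, fewer cells of a type and less RNA per cell cannot be told apart.

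Within each source, nearly all members were lower at 37 than at 6 degrees, and at each temperature nearly all were highest in the tumour region. All 38 had their lowest value in the normal diet or the non-tumour library of 37 degrees, where 31.3% of the 11557 genes tested did. The tumour library of 6 degrees was the highest for 36 of 38 (12.0% of the genes tested), and the exceptions were Timd4 and Marco. The tumour library of 37 degrees was not low for most members, as it exceeded both other libraries of 6 degrees in 29 of 38. Among the 11557 genes tested it did so in 4179.

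**Figure D1:**
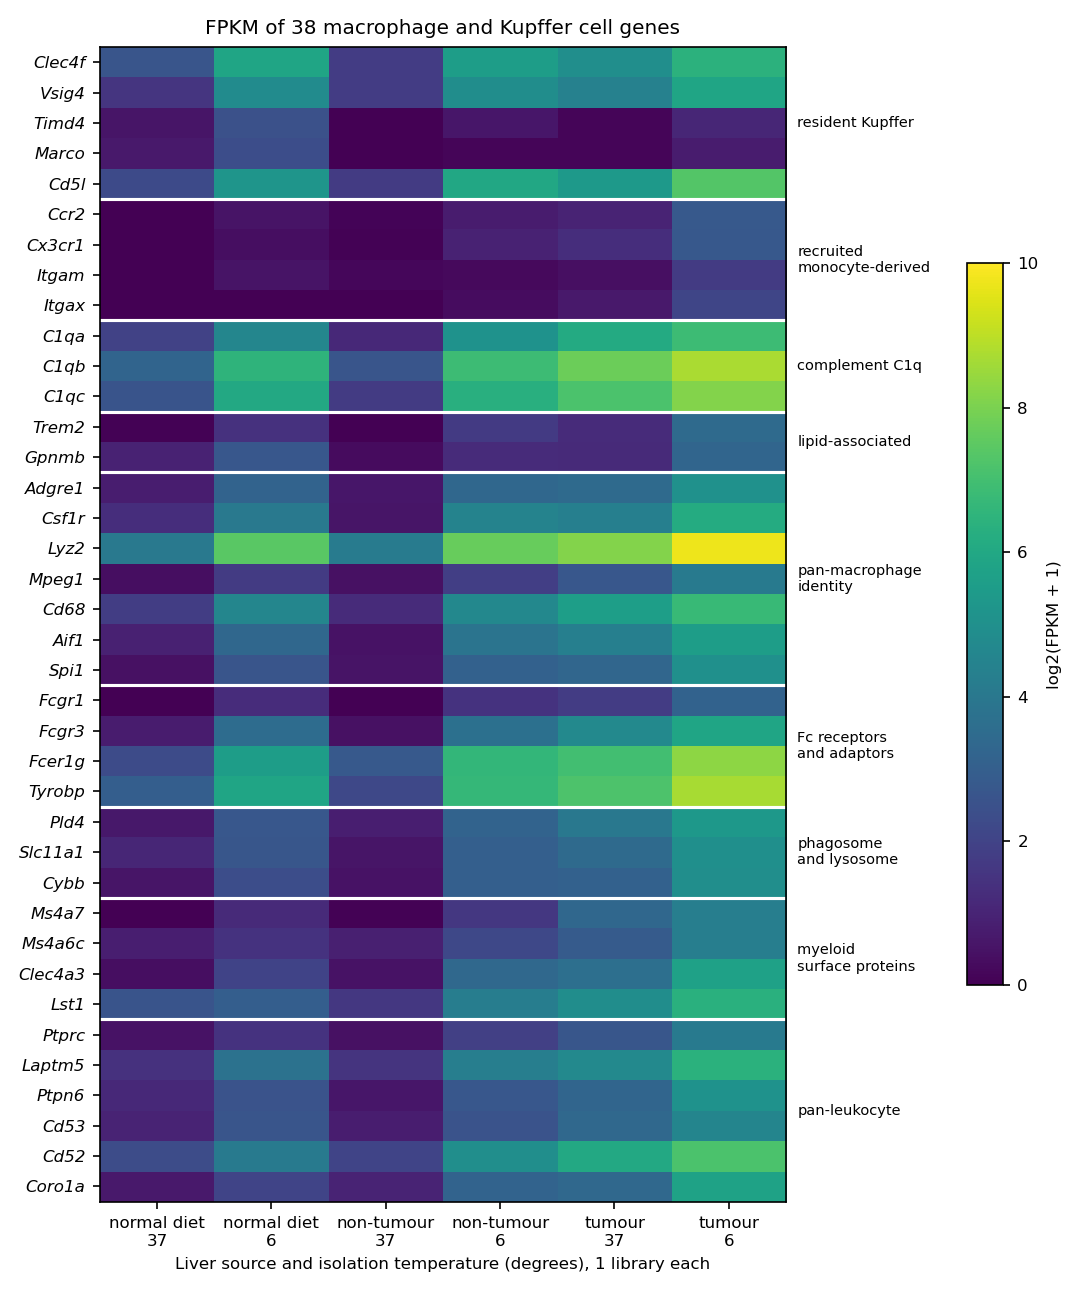
Heat map of the 38 macrophage and Kupffer cell genes (rows, grouped by role) in the 6 libraries (columns, 1 library each), with colour giving log2(FPKM + 1). The column of the tumour region at 6 degrees is the brightest for 36 genes, while Timd4 and Marco are brightest in the normal diet library of 6 degrees.

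Of the 5 genes of resident Kupffer cells, Clec4f, Vsig4 and Cd5l were abundant, whereas Timd4 and Marco were scarce and had another order of sources. The 250 bases before the start of 4 of these genes are printed here because they carry the contrast between the pairs: Vsig4 and Cd5l were highest in the tumour region, Timd4 and Marco in normal diet livers. They are RefSeq sequences on GRCm38.p6, read in the direction of the gene, at chrX:96293439-96293688 (minus strand) for Vsig4, chr3:87357631-87357880 (plus) for Cd5l, chr11:46810549-46810798 (plus) for Timd4 and chr1:120505025-120505274 (minus) for Marco. Capitals mark the word GAGGAAG or its reverse complement CTTCCTC, which holds the purine-rich core bound by PU.1, the macrophage transcription factor encoded by the member Spi1.
Vsig4: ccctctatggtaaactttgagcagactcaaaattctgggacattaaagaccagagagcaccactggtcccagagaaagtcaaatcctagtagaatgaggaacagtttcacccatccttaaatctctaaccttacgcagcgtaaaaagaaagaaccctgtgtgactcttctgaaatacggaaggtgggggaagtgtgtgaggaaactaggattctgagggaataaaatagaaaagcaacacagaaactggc
Cd5l: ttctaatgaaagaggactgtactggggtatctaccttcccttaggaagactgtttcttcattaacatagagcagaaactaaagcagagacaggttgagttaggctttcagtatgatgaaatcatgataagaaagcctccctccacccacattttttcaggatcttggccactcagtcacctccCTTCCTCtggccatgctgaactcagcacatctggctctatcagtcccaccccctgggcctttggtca
Timd4: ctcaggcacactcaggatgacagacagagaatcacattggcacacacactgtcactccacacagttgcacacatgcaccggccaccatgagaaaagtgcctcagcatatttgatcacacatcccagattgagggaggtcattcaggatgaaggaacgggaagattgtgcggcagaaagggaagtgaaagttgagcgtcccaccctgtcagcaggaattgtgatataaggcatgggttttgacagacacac
Marco: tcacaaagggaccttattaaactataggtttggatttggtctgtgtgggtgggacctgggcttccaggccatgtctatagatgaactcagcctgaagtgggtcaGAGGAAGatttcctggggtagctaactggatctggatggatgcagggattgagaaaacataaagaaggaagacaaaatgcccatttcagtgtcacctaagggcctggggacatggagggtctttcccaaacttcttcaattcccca
Cd5l and Marco, 1 gene of each pair, held the word, and Vsig4 and Timd4 did not hold these letters in this window. Both of the latter windows do hold the shorter run ggaa, so a missing word does not mean that the core is missing. Such windows were at hand for 31 of the 38 members, and 8 of them (25.8%) held the word on either strand, against 12.0% of 27025 genes. These were Marco, Cd5l, C1qc, Fcgr1, Fcgr3, Laptm5, Itgam and Trem2. A match describes the letters only and is not a bound site.

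Clec4f, a lectin receptor found on mouse Kupffer cells, stood at 5.25 and 57.8 FPKM in normal diet, 2.46 and 46.6 in non-tumour and 30.1 and 85.1 in tumour libraries. Each library of 6 degrees exceeded all 3 of 37 degrees, and the tumour library was the highest at either temperature. Its difference of 37 minus 6 degrees was -2.83 ± 0.43 on the log2(FPKM + 1) scale (SE over 3 pairs, limma adjusted p = 0.0275), so Clec4f fell at 37 degrees, while tumour minus normal diet was 1.43 ± 0.53 and did not pass (limma adjusted p = 0.17). Vsig4, a complement receptor that captures bacteria from the blood, read 1.91 and 27.5, then 2.40 and 29.2, then 19.9 and 57.2 FPKM. Its tumour value at 37 degrees lay below all 3 values at 6 degrees. Vsig4 fell by 2.64 ± 0.37 at 37 degrees (SE, limma adjusted p = 0.021), and tumour minus normal diet was 1.94 ± 0.45 (limma adjusted p = 0.059). Cd5l, a secreted scavenger protein of tissue macrophages, read 3.80 and 36.5, then 2.33 and 63.1, then 41.8 and 160 FPKM. Both tumour values were above both normal diet values. Cd5l fell by 3.05 ± 0.42 at 37 degrees (SE, limma adjusted p = 0.021) and was the 1 resident gene that rose in tumour against normal diet livers, by 2.63 ± 0.52 (limma adjusted p = 0.0396).

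Timd4, a receptor for phosphatidylserine on dying cells, stood at 0.474 and 4.52 FPKM in normal diet, at 0 and 0.517 in non-tumour and at 0.110 and 1.08 in tumour libraries. At the same temperature, normal diet livers had the highest value both times. These levels rest on about 20.0 and 230 estimated fragments in normal diet, 0 and 22.0 in non-tumour and 4.0 and 46.0 in tumour libraries. On the log2(FPKM + 1) scale, which understates changes of low genes, the differences from normal diet were -1.21 ± 0.34 in the non-tumour and -0.91 ± 0.34 in the tumour region (SE, limma adjusted p = 0.117 and 0.175). Neither passed, but with a pseudocount of 0.1 in place of 1 Timd4 fell in the non-tumour region (limma adjusted p = 0.0444). Without the normal diet libraries the mean of Timd4 was under the 1 FPKM needed for testing, so these tests cannot count as support. Marco, a scavenger receptor for bacteria and particles, read 0.604 and 4.11, then 0 and 0.104, then 0.0917 and 0.675 FPKM. Its mean of 0.931 FPKM was under the limit of 1 FPKM for testing. As with Timd4, the normal diet library was the highest of the 3 sources at each temperature, and the non-tumour library the lowest.

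The 4 genes of recruited, monocyte-derived macrophages were scarce, with sums from 0.0468 to 17.3 FPKM, and all 4 were highest in the tumour library of 6 degrees. Ccr2, the chemokine receptor that brings monocytes out of the bone marrow, stood at 0.0138 and 0.445 FPKM in normal diet, 0.0787 and 0.697 in non-tumour and 0.994 and 5.91 in tumour libraries. Both tumour values lay above the other 4. Tumour minus normal diet was 1.62 ± 0.35 for Ccr2 (SE, limma adjusted p = 0.0502), just short of the threshold of 0.05, and 37 minus 6 degrees was -0.99 ± 0.28 (limma adjusted p = 0.137). Cx3cr1, the fractalkine receptor, read 0 and 0.283, then 0.0450 and 0.964, then 1.45 and 5.80 FPKM. Again both tumour values exceeded all others. Cx3cr1 rose in tumour against normal diet livers by 1.85 ± 0.29 (SE, limma adjusted p = 0.0227), and its temperature difference of -0.91 ± 0.24 did not pass (limma adjusted p = 0.115). Without the tumour libraries, or without those of 6 degrees, the means of Ccr2 and Cx3cr1 were under the limit of 1 FPKM. They were thus tested only through the libraries where they were high, and these tests cannot count as support for a difference. Itgam (CD11b), an integrin chain of myeloid cells, read 0.0208 and 0.431, then 0.143 and 0.186, then 0.327 and 2.29 FPKM. Its tumour and normal diet values overlapped. Itgax (CD11c), its neighbour on chromosome 7, read 0.0122 and 0.0101, then 0 and 0.242, then 0.597 and 3.27 FPKM. Both normal diet values of Itgax amounted to about 1.0 estimated fragment each, against 259 in the tumour library of 6 degrees. Itgam and Itgax had means of 0.567 and 0.688 FPKM and were not tested.

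The complement C1q chains are secreted largely by macrophages, and their 3 genes lie side by side on chromosome 4 (mm10), C1qb at chr4:136880129-136886187, C1qc at chr4:136889804-136893065 and C1qa at chr4:136895917-136898803. C1qb was the most abundant of them, at 8.33 and 89.8 FPKM in normal diet, 5.20 and 116 in non-tumour and 216 and 424 in tumour libraries. Both tumour values exceeded the other 4. C1qc read 5.04 and 64.5, then 2.34 and 77.4, then 143 and 282 FPKM. C1qa read 2.89 and 22.8, then 1.22 and 33.2, then 67.5 and 115 FPKM. All 3 had the same order of libraries. Within the tumour region their FPKM at 6 degrees was 1.70 to 1.98 times that at 37 degrees, against 7.89 to 12.8 times in normal diet and 22.3 to 33.0 times in non-tumour livers. None of the 3 passed in any comparison: tumour minus normal diet was 3.21 ± 0.70 for C1qa, 3.38 ± 0.73 for C1qb and 3.34 ± 0.79 for C1qc (SE, limma adjusted p = 0.0509, 0.0502 and 0.0634). Their temperature differences were -2.44 ± 0.57, -2.83 ± 0.60 and -2.99 ± 0.65 (SE, limma adjusted p = 0.0876, 0.0673 and 0.0719). These errors were the widest of the members tested, and the additive model counts an effect of temperature that is unequal between sources as spread.

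Trem2, a lipid-sensing receptor of macrophages, stood at 0.0530 and 1.71 FPKM in normal diet, 0 and 2.27 in non-tumour and 1.36 and 9.89 in tumour libraries. Its tumour value at 37 degrees lay under the normal diet value at 6 degrees, so the sources overlapped. Trem2 fell by 1.76 ± 0.20 at 37 degrees (SE, limma adjusted p = 0.013) and rose in tumour against normal diet livers by 1.58 ± 0.24 (limma adjusted p = 0.0209). Gpnmb, a transmembrane glycoprotein of lipid-laden macrophages, read 0.959 and 5.61, then 0.237 and 1.32, then 1.27 and 8.49 FPKM. Like Timd4 and Marco it was lowest in the non-tumour region at either temperature. Gpnmb fell by 1.58 ± 0.24 at 37 degrees (SE, limma adjusted p = 0.0287), whereas tumour minus normal diet was 0.37 ± 0.30 (limma adjusted p = 0.497). Without the libraries of 6 degrees, the means of Trem2 and Gpnmb were under the limit of 1 FPKM, so their temperature tests cannot count as support. Non-tumour minus normal diet was -1.09 ± 0.30 for Gpnmb, which did not pass (limma adjusted p = 0.111) but did with the pseudocount of 0.1 (limma adjusted p = 0.0318).

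All 7 genes of general macrophage identity fell at 37 degrees and rose in tumour against normal diet livers. Lyz2, which encodes lysozyme, was the most abundant member in every library, at 15.4 and 175 FPKM in normal diet, 16.6 and 204 in non-tumour and 285 and 857 in tumour libraries. Both tumour values exceeded the other 4. Its differences were -2.85 ± 0.39 for temperature and 3.21 ± 0.48 for tumour minus normal diet (SE, limma adjusted p = 0.0208 and 0.0198). Csf1r, the growth factor receptor on which macrophages depend, read 1.45 and 15.4, then 0.479 and 20.9, then 18.8 and 70.3 FPKM. Its tumour value at 37 degrees was above both normal diet values and below the non-tumour value at 6 degrees. Csf1r differed by -2.83 ± 0.37 and 2.57 ± 0.46 (SE, limma adjusted p = 0.0191 and 0.0304). Adgre1, which encodes the F4/80 antigen, read 0.751 and 8.21, then 0.526 and 9.05, then 9.89 and 31.9 FPKM. Its differences of -2.24 ± 0.23 and 2.24 ± 0.28 mirrored each other (SE, limma adjusted p = 0.0114 and 0.0137).

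Spi1 read 0.374 and 5.30, then 0.427 and 7.50, then 8.86 and 31.6 FPKM. Its differences were -2.17 ± 0.18 for temperature and 2.61 ± 0.23 for tumour minus normal diet (SE, limma adjusted p = 0.00866 and 0.00716). Mpeg1, which encodes the pore-forming perforin-2 of phagocytes, read 0.293 and 2.35, then 0.361 and 2.65, then 5.49 and 16.0 FPKM. Its temperature difference was -1.39 ± 0.12 and its tumour difference 2.33 ± 0.15 (SE, limma adjusted p = 0.00866 and 0.00694). For Spi1 and Mpeg1 both tumour values exceeded all 4 others. Cd68, a lysosomal glycoprotein, read 2.54 and 23.3, then 1.34 and 24.5, then 47.5 and 105 FPKM, with both tumour libraries again on top. Cd68 differed by -2.45 ± 0.43 and 2.95 ± 0.53 (SE, limma adjusted p = 0.0413 and 0.0308), and Aif1, an actin-binding protein of macrophages, by -2.33 ± 0.38 and 2.79 ± 0.47 (SE, limma adjusted p = 0.0347 and 0.0262).

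The 4 genes of Fc receptors and their adaptors all fell at 37 degrees and all rose in tumour against normal diet livers. The adaptor genes Tyrobp (DAP12) and Fcer1g were the most abundant, with 417 and 315 FPKM in the tumour library of 6 degrees and 7.01 and 3.88 FPKM in the normal diet library of 37 degrees. Fcer1g had the largest tumour difference of all members tested, 3.71 ± 0.57 (SE, limma adjusted p = 0.021). Tyrobp followed with 3.52 ± 0.66 and Fcgr3, a low-affinity IgG receptor, with 3.15 ± 0.48 (SE, limma adjusted p = 0.0347 and 0.0205). Fcgr1, the high-affinity IgG receptor, rose by 1.81 ± 0.17 (SE, limma adjusted p = 0.00778) and was listed at 0 in the non-tumour library of 37 degrees. Without the tumour libraries, or without those of 6 degrees, the mean of Fcgr1 was under the limit of 1 FPKM. Its tests cannot count as support for a difference. The temperature differences of these 4 genes ran from -2.96 ± 0.54 for Tyrobp to -1.36 ± 0.14 for Fcgr1 (SE, limma adjusted p = 0.0442 and 0.0112).

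The 3 genes of the phagosome and lysosome also passed in both comparisons. Slc11a1, a metal transporter of the phagosome membrane, differed by -1.85 ± 0.21 for temperature and 2.33 ± 0.26 for tumour minus normal diet (SE, limma adjusted p = 0.013 and 0.0103). Cybb, the catalytic subunit of the phagocyte oxidase, differed by -2.05 ± 0.18 and 2.56 ± 0.22 (SE, limma adjusted p = 0.00883 and 0.00716). Pld4, a nuclease of endolysosomes, differed by -1.93 ± 0.21 and 2.99 ± 0.26 (SE, limma adjusted p = 0.0119 and 0.00716). Slc11a1 ranged from 0.483 FPKM in the non-tumour library of 37 degrees to 30.2 FPKM in the tumour library of 6 degrees, close to the range of Cybb, 0.422 to 30.1 FPKM.

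The 4 myeloid surface genes all rose in tumour against normal diet livers, and 3 of them fell at 37 degrees. Ms4a7, a tetraspan protein of macrophages, was listed at 0 in the normal diet library of 37 degrees and reached 9.04 and 18.3 FPKM in the tumour libraries. Its tumour difference of 3.21 ± 0.20 far exceeded its temperature difference of -1.22 ± 0.16 in size (SE, limma adjusted p = 0.00694 and 0.0195). Without the tumour libraries the mean of Ms4a7 was under the limit of 1 FPKM, so its tumour test cannot count as support. Clec4a3, a lectin receptor of myeloid cells, rose by 3.49 ± 0.31 and Ms4a6c by 2.42 ± 0.22 in tumour livers (SE, limma adjusted p = 0.00716 and 0.00778). Both fell by 2.21 ± 0.25 and 1.12 ± 0.18 at 37 degrees (SE, limma adjusted p = 0.013 and 0.0345). Lst1, a leukocyte transmembrane adaptor, rose by 2.82 ± 0.50 in tumour livers (SE, limma adjusted p = 0.0296), and its temperature difference of -1.48 ± 0.40 did not pass (limma adjusted p = 0.124). At 6 degrees Lst1 was only 1.36 times its value at 37 degrees in normal diet livers.

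The 6 genes shared by leukocytes at large passed in both comparisons. Ptprc itself, the gene of the protein that the sort selected against, stood at 0.397 and 1.75 FPKM in normal diet, 0.375 and 2.73 in non-tumour and 5.44 and 16.5 in tumour libraries. Both tumour values exceeded the other 4. Ptprc fell by 1.29 ± 0.15 at 37 degrees and rose in tumour against normal diet livers by 2.44 ± 0.19 (SE, limma adjusted p = 0.0142 and 0.00716). Of the others, tumour differences ran from 2.14 ± 0.19 for the tetraspanin gene Cd53 to 3.40 ± 0.39 for Cd52, which encodes a small surface glycoprotein (SE, limma adjusted p = 0.00716 and 0.0115). Coro1a, an actin regulator of leukocytes, rose by 3.20 ± 0.26, Laptm5, a lysosomal membrane protein, by 2.95 ± 0.26 and Ptpn6, the phosphatase SHP-1, by 2.33 ± 0.20 (SE, limma adjusted p = 0.00716 each). Their temperature differences lay between -2.27 ± 0.21 for Laptm5 and -1.52 ± 0.15 for Cd53 (SE, limma adjusted p = 0.0103 and 0.0112). Leukocytes other than macrophages also carry these transcripts.

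Across temperatures, 28 of the 35 members tested fell at 37 degrees and none rose, where 4.62% of the 11557 genes tested fell and 0.511% rose (5.13% in either direction). The median difference of the 35 was -2.05, against 0.01 over all genes tested. The 7 that did not pass were Timd4, Ccr2, Cx3cr1, C1qa, C1qb, C1qc and Lst1, all with negative differences. Timd4, Ccr2, Cx3cr1, Trem2, Gpnmb and Fcgr1 reached a mean of 1 FPKM only through the libraries of 6 degrees. Their temperature tests cannot count as support for a fall. In FPKM, 37 of 38 members were lower at 37 degrees in all 3 sources, where 21.8% of the genes tested were. The exception was Itgax in normal diet livers, with about 1.0 fragment at either temperature. The median ratio of 6 over 37 degrees was 9.57 in normal diet (36 genes with a value above 0 at 37 degrees), 16.5 in non-tumour (33 genes) and 3.03 in tumour livers (38 genes). With 1 pair per source, the difference between these ratios was not tested. All 15 genes of sinusoidal endothelial cells, which the CD31 gate was to remove, fell at 37 degrees as well. Their sum was 72.2, 582 and 544 FPKM in the 37 degree libraries and 1724, 4263 and 2141 FPKM in the 6 degree libraries, and none was listed at 0. The 3 neutrophil genes tested and 9 of 10 hepatocyte genes had negative differences, none of which passed. All 11 stellate cell genes had positive differences, with a median of 0.35, and Lrat, Hand2 and Cygb rose at 37 degrees. The part of these cells in the members' result was not tested. The count of members that fell was 16 when the normal diet pair was left out, 5 when the non-tumour pair was and 29 when the tumour pair was. Spi1, Slc11a1, Cybb and Clec4a3 passed whichever pair was left out. With no filter on low values the count was 0. With a pseudocount of 0.1, Timd4 and Ccr2 also fell at 37 degrees (limma adjusted p = 0.0319 and 0.0389), while Cd68, Aif1, Fcgr3, Tyrobp, Ms4a7 and Cd52 no longer passed.

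**Figure D2:**
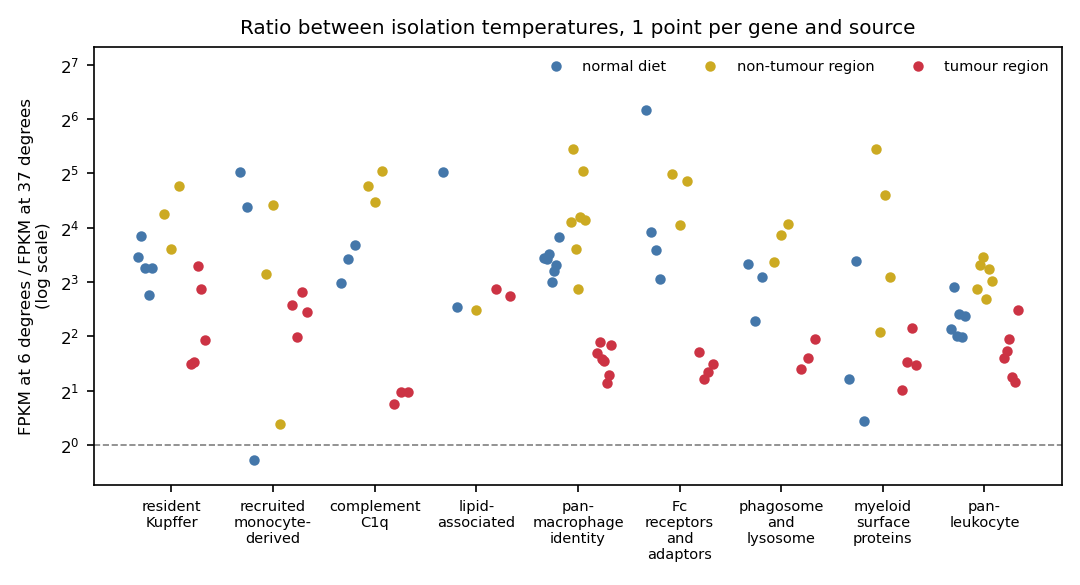
Ratio of FPKM at 6 over 37 degrees on a log axis for each macrophage and Kupffer cell gene with a value above 0 at 37 degrees, by role and coloured by liver source (1 library at each temperature). Tumour ratios have a median of 3.03 and mostly lie under those of normal diet (median 9.57) and non-tumour livers (median 16.5), and 1 point, Itgax in normal diet livers, lies under the dashed line of equal values.

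Between sources, 27 of 35 members rose in tumour against normal diet livers and none fell, where 6.07% of the genes tested rose and 3.28% fell (9.35% in either direction). The median difference was 2.61, against 0.01 over all genes tested. Those that did not pass were Clec4f, Vsig4, Timd4, Ccr2, C1qa, C1qb, C1qc and Gpnmb, and only Timd4 among them had a negative difference. Ccr2, Cx3cr1, Fcgr1 and Ms4a7 reached a mean of 1 FPKM only through the tumour libraries. Their tests here, also those with a library left out, cannot count as support for a rise. Both tumour libraries exceeded both normal diet libraries in 31 of 38 members (25.1% of the genes tested). So even the tumour library of 37 degrees, the temperature at which the members were lower, was above the normal diet library of 6 degrees for most of them. The 7 members for which it was not were Clec4f, Vsig4, Timd4, Marco, Itgam, Trem2 and Gpnmb, which include 4 of the 5 resident genes. Neutrophil genes moved with this comparison, and 2 of 3 tested, S100a9 and Csf3r, rose. Csf3r too reached a mean of 1 FPKM only through the tumour libraries. In sum, 8 neutrophil genes came to 1.65 and 2.36 FPKM in normal diet and 11.0 and 62.3 FPKM in tumour libraries, with 2 or 3 of the 8 at 0 in each. T and NK cell genes summed to 2.03 and 3.25 against 7.43 and 13.3 FPKM. All 15 endothelial genes had positive differences too, with a median of 1.35, and 2 of them rose. The part of these cells in the members' result was not tested. Without the normal diet library of 37 degrees 16 members rose, and without that of 6 degrees 13, while leaving out any other library gave 26 to 29. With no filter on low values 15 members rose. With a pseudocount of 0.1, Ccr2 passed as well (limma adjusted p = 0.0236), and Cd5l, Csf1r, Cd68, Aif1, Fcgr1, Fcgr3 and Tyrobp did not (limma adjusted p = 0.0508 to 0.0829). The 13 that passed whichever library was left out were Mpeg1, Spi1, Fcgr1, Cybb, Pld4, Ms4a7, Ms4a6c, Clec4a3, Ptprc, Laptm5, Ptpn6, Cd53 and Coro1a.

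Non-tumour and normal diet livers, which share the normal diet libraries with the comparison above, differed in no member by limma's adjusted p, where 5.56% of the genes tested passed, 2.98% being higher and 2.59% lower. Unadjusted, 1 of the 35 members was higher with a limma p under 0.05, Coro1a, and 2 were lower, Timd4 and Gpnmb. Of the 11557 genes tested, 1460 were higher and 1043 lower at that unadjusted threshold, so the members were not called more often than genes at large. The median difference of the 35 was 0.10. At 37 degrees 14 of 38 members were higher in non-tumour than in normal diet livers (52.9% of the genes tested), and at 6 degrees 32 of 38 were (55.8%). The median differences of the 35 were -0.18 and 0.42, against 0.02 and 0.04 over all genes tested. With 1 library per group, the difference between the temperatures was not tested. All 15 endothelial genes had positive differences here, with a median of 1.94, and 2 of them rose.

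Against the non-tumour region of the same diet, 14 members rose in the tumour region and none fell, where 0.450% of the genes tested rose and 0.00% fell. They were Cd53, Clec4a3, Coro1a, Cybb, Fcgr1, Laptm5, Mpeg1, Ms4a6c, Ms4a7, Pld4, Ptpn6, Ptprc, Slc11a1 and Spi1, with limma adjusted p of 0.0383 to 0.0451. Fcgr1 and Ms4a7 were tested only through their tumour libraries, so their calls cannot count as support. Ms4a7 rose by 2.96 ± 0.20, Spi1 by 2.36 ± 0.23 and Mpeg1 by 2.23 ± 0.15 (SE, limma adjusted p = 0.0383 each). No resident, recruited, C1q or lipid-associated gene was among the 14 that rose. The C1q differences were larger than those of the 14 but had wider errors, from 3.35 ± 0.70 for C1qa to 3.64 ± 0.79 for C1qc (SE, limma adjusted p = 0.171 and 0.195). The median difference of the 35 members was 2.51. This count was fragile: it was 0 when any 1 library was left out other than the tumour library of 6 degrees, and 25 without that one. It was also 0 with a pseudocount of 0.1, with a minimum mean of 5 FPKM and with no filter on low values. The tumour library was the highest of the 3 sources at both temperatures for 36 of 38 members (15.1% of the genes tested), again with Timd4 and Marco as exceptions.

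**Figure D3:**
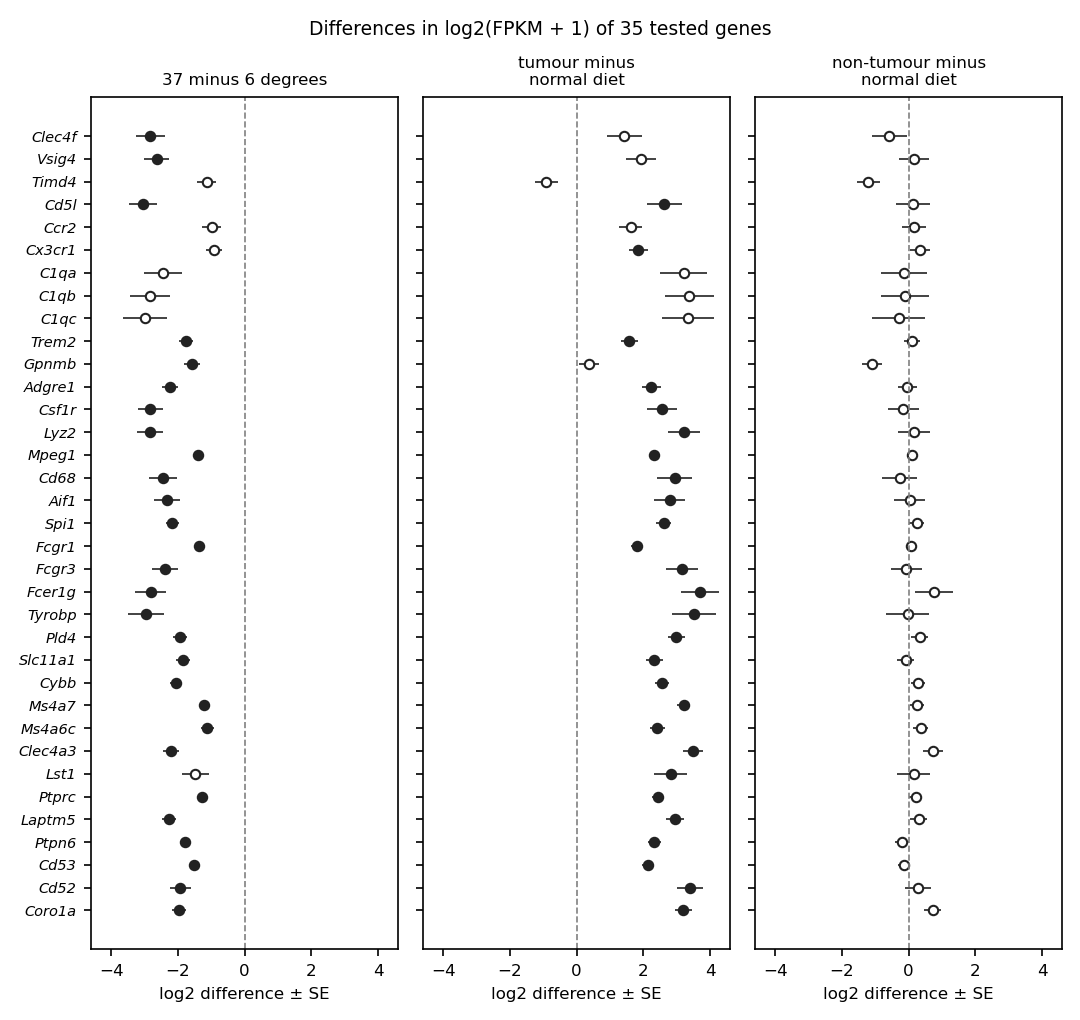
Differences on the log2(FPKM + 1) scale for the 35 members tested, 37 minus 6 degrees, tumour minus normal diet and non-tumour minus normal diet, with bars of 1 SE from limma over 6 libraries. Filled points have an adjusted p under 0.05 and open points do not: 28 members are filled below 0 for temperature and 27 above 0 for tumour livers, none is filled for non-tumour livers, and Timd4 is the 1 member with a negative tumour difference.

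Resident and recruited genes were set against each other within each library. This takes out the total amount of macrophage RNA only as far as both sets come from macrophages. Other leukocytes can carry recruited genes too, and their part in these ratios was not tested. The 5 resident genes summed to 12.0, 130, 7.19, 140, 92.0 and 304 FPKM, and the 4 recruited genes to 0.0468, 1.17, 0.267, 2.09, 3.37 and 17.3 FPKM. The ratio of resident to recruited was 257 and 112 in normal diet, 27.0 and 66.8 in non-tumour and 27.3 and 17.6 in tumour libraries. Both normal diet ratios were above the other 4. On the log2 scale the ratio was lower by 2.95 in tumour than in normal diet livers (SD 0.41 over the 2 temperatures), while 37 minus 6 degrees gave 0.18 (SD 1.32 over the 3 sources). The recruited sums of the 37 degree libraries rest on few reads, about 4.38 and 22.4 estimated fragments in normal diet and non-tumour livers and 269 in tumour livers. When medians of log2(FPKM + 1) replaced the sums, the difference between tumour and normal diet turned to 0.53, with most recruited values under the pseudocount of 1 FPKM. With a pseudocount of 0.05, an alternative added after the data were seen, it was -1.38.

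The 5 resident genes did not move as 1 block. The sum of Clec4f, Vsig4 and Cd5l was 11.0, 122, 7.19, 139, 91.8 and 303 FPKM, and that of Timd4 and Marco 1.08, 8.63, 0, 0.621, 0.202 and 1.75 FPKM. The first was highest in the tumour region and the second in normal diet livers, at both temperatures. As a share of Csf1r, a measure chosen after the values were seen, Timd4 came to 32.8% and 29.3% in normal diet livers and Marco to 41.7% and 26.6%. In tumour livers the shares were 0.6% and 1.5% for Timd4 and 0.5% and 1.0% for Marco. Relative to Csf1r, then, normal diet values of both genes exceeded tumour values at both temperatures. The tumour shares at 37 degrees rest on about 4.0 estimated fragments of Timd4 and 2.9 of Marco. Clec4f went from 363% and 374% of Csf1r in normal diet to 160% and 121% in tumour livers and Vsig4 from 132% and 178% to 106% and 81.4%. Cd5l stayed between 222% and 263% of Csf1r in these 4 libraries. That steadiness depends on the divisor. Against the geometric mean of the 7 general macrophage genes, Cd5l stood at 309% and 284% in normal diet and at 193% and 249% in tumour livers. As a share of Csf1r, Ccr2 went the other way from Clec4f and Vsig4, from 1.0% and 2.9% to 5.3% and 8.4%. So did Cx3cr1, from 0% and 1.8% to 7.7% and 8.3%, and Itgax, from 0.8% and 0.07% to 3.2% and 4.6%. Itgam, at 1.4% and 2.8% in normal diet and 1.7% and 3.3% in tumour livers, overlapped. In the non-tumour library of 6 degrees Timd4 was at 2.5%, Marco at 0.5%, Clec4f at 223% and Cd5l at 302% of Csf1r. The non-tumour library of 37 degrees had too little Csf1r, 0.479 FPKM, for stable shares.

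**Figure D4:**
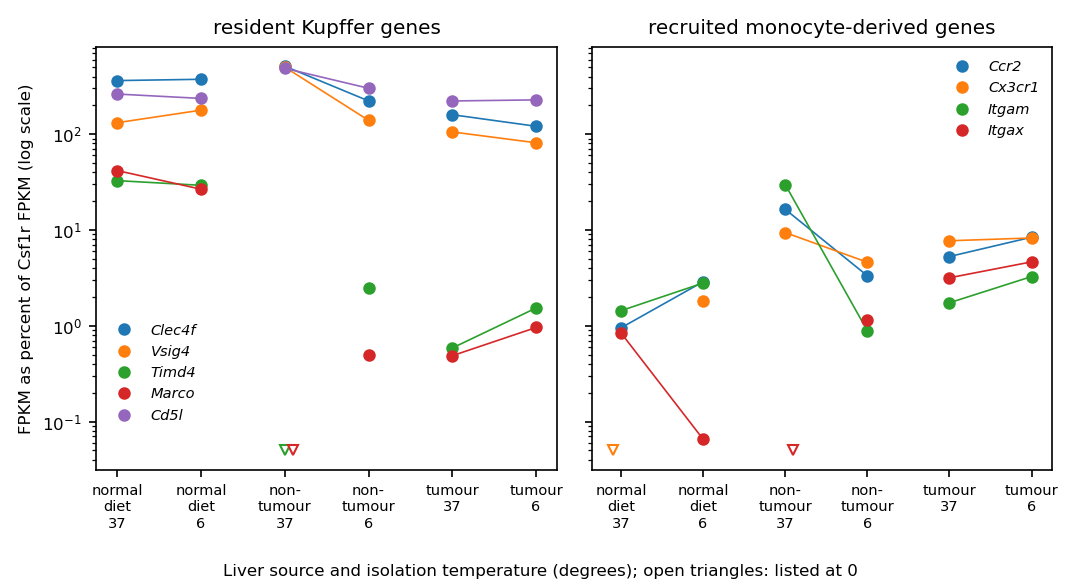
FPKM of resident and recruited macrophage genes as a percent of Csf1r in each library (log axis, 1 library per point, lines joining the temperatures of a source, open triangles for genes listed at 0). Timd4 and Marco lie between 26.6% and 41.7% in normal diet libraries and between 0.5% and 1.5% in tumour libraries, while Ccr2 lies at 1.0% and 2.9% and at 5.3% and 8.4%.

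Other genes known from these macrophages gave a mixed picture. Of 10 further Kupffer cell genes, 9 were tested, and Hmox1, Il18bp, Slc40a1 and Folr2 fell at 37 degrees. In tumour against normal diet livers C6, Il18bp, Spic and Nr1h3 rose, and Fcna and Slc40a1 fell. Fcna stood at 471 to 3217 FPKM, above all 38 members in each library but the tumour library of 6 degrees. In the normal diet library of 37 degrees Fcna, Id3, Slc40a1 and C6 read 3140, 2017, 210 and 39.9 FPKM, where all 38 members summed to 79.9 FPKM. Which cells carried these transcripts was not tested, so they cannot be read as macrophage RNA. Spic, a transcription factor of red pulp macrophages and Kupffer cells, read 0.310 and 2.02, then 0.152 and 1.84, then 6.75 and 10.1 FPKM and rose by 2.22 ± 0.24 (SE, limma adjusted p = 0.01). Of 10 further monocyte genes 6 were tested, and Lgals3, Plac8 and S100a4 rose in tumour livers, while Lgals3 and S100a4 fell at 37 degrees. The same limit holds for Plac8, which stood at 473 to 946 FPKM. Of 8 further genes of lipid-associated macrophages, all tested, Mmp12, Fabp5 and Lgals3 rose in tumour livers, and these 3 and Cd9 fell at 37 degrees. Fabp5, which binds fatty acids, also rose in the non-tumour region, by 2.17 ± 0.31 (SE, limma adjusted p = 0.0218), where Trem2 and Gpnmb did not pass. In the same comparison Spp1, which encodes osteopontin and is also a bile duct gene, fell by 3.18 ± 0.23 (SE, limma adjusted p = 0.00653).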

How the data were processed

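The deposited values are FPKM, which the authors made with TopHat2 2.1.1, Bowtie2 and Cuffdiff 2.2.1 on mm10, per the submitters' processing notes. Annotation, strand setting and Cuffdiff's scaling are not given in the sources, so reads of overlapping antisense genes cannot be told apart. FPKM hold no counts. Depth was estimated from the steps between low values of 3434 genes with a single transcript, so fragment numbers are estimates. Groups were taken from the labels, with 1 library each. After 1320 small RNA symbols and genes with a mean under 1 FPKM were left out, limma 3.58.1 (R 4.3.3) tested 11557 genes on the log2(FPKM + 1) scale. The model held source and temperature as additive terms with a trended variance, which left 2 residual degrees of freedom. P-values were adjusted by Benjamini-Hochberg over all genes tested, and an adjusted p under 0.05 was called. Of the 38 members, 35 were tested. Values were printed for members named by role, and all others were summarised. Members and lists were chosen with earlier results of these data known. The fit was tested on simulated data. Alternatives were another pseudocount, other filters on low values, quantile normalization, median-ratio rescaling, no variance trend, and leaving out a library or a pair.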

Additional observations from a re-analysis of the deposited data

Results flagged for a closer look

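For 4 members, non-tumour minus normal diet had opposite signs at the 2 isolation temperatures, by at least 0.5 on the log2(FPKM + 1) scale each way. Cd5l was at -0.53 at 37 degrees and at 0.78 at 6 degrees. C1qa was at -0.81 and 0.52. Tyrobp was at -0.84 and 0.78. Lst1 was at -0.97 and 1.28. With 1 library per group, the difference between temperatures was not tested.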

How the results depend on the processing

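The temperature difference was fitted within source, over 3 pairs. By replicate number, no paired analysis was possible because each group held 1 library and the labels carry no such numbers. Without a filter on low values, no member and no gene passed for temperature (unadjusted, 1020 genes higher and 1820 lower), 15 members and 505 genes passed for tumour against normal diet, and 265 genes for non-tumour against normal diet. A minimum mean of 5 FPKM gave 330 genes for temperature and 681 for tumour against normal diet. Tumour against non-tumour gave 0 members and 0 genes with no filter, with the minimum of 5 FPKM and with a pseudocount of 0.1. That pseudocount gave 2 members for non-tumour against normal diet, Timd4 and Gpnmb. When 1 library or pair was left out, the members called ranged from 5 to 29 for temperature and from 13 to 29, 0 to 0 and 0 to 25 for tumour against normal diet, non-tumour against normal diet and tumour against non-tumour. Genes called ranged from 82 to 472, 303 to 980, 0 to 894 and 0 to 165 in the same order. Timd4 in tumour against non-tumour turned to -0.10 without the non-tumour library of 6 degrees and to 0.70 without that of 37 degrees. The log2 ratio of resident to recruited genes, taken from medians of log2(FPKM + 1), gave -1.83 for temperature, 0.53 for tumour against normal diet, 0.056 for the non-tumour region against normal diet and 0.48 between the regions. With a pseudocount of 0.05, added after the data were seen, it gave -0.60 for temperature and -1.38 for tumour against normal diet. The cause was not tested. Quantile normalization, median-ratio rescaling and the fit without a trend gave 22 to 28 members for temperature and 25 to 29 for tumour against normal diet.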

Other observations

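Cd163, a haemoglobin scavenger receptor named here after its values were seen, read 0.388 and 2.30 FPKM in normal diet, 0 and 0.154 in non-tumour and 0.194 and 0.451 in tumour libraries. It was highest in normal diet livers at both temperatures, as Timd4 and Marco were, and was too low to be tested. Most of the list it was picked from went the other way. Of the 9 further Kupffer cell genes tested, 7 had a positive tumour minus normal diet difference and 2 a negative one. These counts hold for the list only: C6 and Id3 among the 7, and the 2 others, Fcna and Slc40a1, cannot be read as macrophage RNA. Ly6c2, a surface marker of inflammatory monocytes chosen in the same way, read 0.238 and 0.197, then 0 and 0.865, then 0.738 and 8.30 FPKM. Its tumour library of 6 degrees stood above the other 5, and tumour minus normal diet was 1.72 ± 0.56 (SE, limma adjusted p = 0.133), which did not pass. Without the tumour libraries the mean of Ly6c2 was under the 1 FPKM needed for testing.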
